A study of Mus musculus with 6 samples.

Results

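The insulin-like growth factor (IGF) genes Igf1, Igf2, Igf2r and Igfbp6 are 4 of the 203 genes named on a low-density array. They were read by 5 of its 223 probes, every probe whose platform annotation names 1 of them. Both Igf1 probes, 22H and 16I, were kept apart because they are annotated to different sequence records. RNA came from sections through the belly of the soleus, a postural calf muscle, of 6 wild-type mice of the 129/SV strain. In every mouse the hindlimbs had been suspended for 7 days and then loaded again for 1 day. The labels give no age or sex, and the 6 samples form 1 group without an unloaded or untreated muscle, so the values describe reloaded muscle and no effect of loading was tested. With 1 array per mouse, the spread given below holds that of the mice and of the labelling together. The number that ends each title serves as the sample's name: 175, 176, 177, 178, 202 and 203.

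Insulin-like growth factor 1 and its relative insulin-like growth factor 2 are small secreted proteins that resemble insulin and act through the type 1 receptor, encoded by Igf1r. In skeletal muscle the first is a local growth signal of loaded fibres and the second is made by differentiating myoblasts. Igf2r encodes the mannose 6-phosphate receptor, which carries lysosomal enzymes and takes insulin-like growth factor 2 into the cell for degradation. Igfbp6 encodes a secreted binding protein with a preference for insulin-like growth factor 2. Igf2 and Igf2r are imprinted in mice, Igf2 being expressed mainly from the paternal and Igf2r from the maternal allele.

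The RefSeq promoter table (GRCm38.p6) held an entry for all 4 genes. The 250 bases before a start site are shown for Igf2 and Igfbp6, whose signals were high on the same arrays, and for Igf2r, whose signal was not. Capitals mark matches on either strand to 1 of 4 motifs. The E-box, the site type of myogenic factors, was searched as CANNTG. The GC box was searched as GGGCGG and the TATA box as TATAAA. The AP-1 element was searched as TGANTCA. Igf2 has 4 starts in the table and the one farthest along the gene is shown; the array does not tell which start was used.
Igf2, chr7:142657497-142657746, minus strand: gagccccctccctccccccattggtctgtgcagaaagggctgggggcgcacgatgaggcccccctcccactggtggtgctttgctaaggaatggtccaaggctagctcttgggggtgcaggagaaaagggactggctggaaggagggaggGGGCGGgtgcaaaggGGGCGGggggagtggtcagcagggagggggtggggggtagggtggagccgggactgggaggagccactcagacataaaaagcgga
Igfbp6, chr15:102143936-102144185, plus strand: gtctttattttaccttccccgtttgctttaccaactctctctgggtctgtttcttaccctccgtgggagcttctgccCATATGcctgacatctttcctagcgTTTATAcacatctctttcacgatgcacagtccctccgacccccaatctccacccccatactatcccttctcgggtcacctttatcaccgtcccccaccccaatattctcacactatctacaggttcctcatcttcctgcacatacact
Igf2r, chr17:12769707-12769956, minus strand: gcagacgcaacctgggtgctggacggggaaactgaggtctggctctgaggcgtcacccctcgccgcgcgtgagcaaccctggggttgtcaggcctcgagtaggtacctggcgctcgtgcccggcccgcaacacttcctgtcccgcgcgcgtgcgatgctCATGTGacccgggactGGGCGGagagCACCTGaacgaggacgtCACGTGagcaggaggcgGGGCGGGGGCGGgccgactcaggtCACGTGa
The Igf2 window held 2 GC boxes and none of the other motifs, with 66.0% G and C. The Igfbp6 window held 1 E-box and 1 TATA box match, with 49.6% G and C, and the Igf2r window held 4 E-boxes and 3 GC boxes, with 69.2%. The windows of the other Igf2 starts differ: the first start has 2 E-boxes, the second none of the motifs and the third 1 GC box. Among all 32851 windows of this length in the table, 66.2% held an E-box, 32.7% a GC box, 12.4% a TATA box and 6.75% an AP-1 element. A match is a description of the letters only.

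The arrays carry a radioactive signal, and the deposited values are treated as each probe's part of the total of the array, in per mille. This scale was inferred from the sums of the values. On this scale a bright probe that is higher on an array lowers the others there. Values are given in steps of 0.1 per mille. The floor of an array is its 10th percentile, which lay between 0.5 and 0.7 per mille, and a signal of at least 2 times that value counted as clear of it. Samples 202 and 203 stood apart from the other 4 over all probes, with 83 and 88 probes clear of the floor against 68 to 75. The unnamed probe 1M gave 968 and 1214 per mille there, and 1295 to 1645 in the others. The labels do not say whether the runs of numbers are batches. All 8 fibre markers, among them the slow myosin Myh7 and myoglobin (Mb) passed that limit in each of the mice. Of the satellite cell list 3 of 7 genes were measured (Myf5, Myod1 and Myog) and 0 were clear in all mice.

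In all 6 mice, 4 of the 5 IGF probes passed this limit: probe 22H of Igf1, Igf2, Igf2r and Igfbp6. Over all probes this share was 25.6%. Probe 16I of Igf1 was clear in 2 mice, so 0 of the 5 were clear in no mouse, a class that held 54.3% of all probes. Probe 22H met the limit narrowly, at 2.0 to 2.17 times the floor in samples 175 to 178, and the count was 3 with the 20th percentile as the floor. At 3 times the floor Igfbp6 alone remained. No order of level is read between probes, since each spot has its own primer and hybridizes with its own efficiency.

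Igf2, the ligand made by differentiating myoblasts, gave 3.2 per mille in sample 175, 2.8 in 176, 2.1 in 177, 2.0 in 178, 7.0 in 202 and 7.5 in 203. Samples 202 and 203 lay close together and above all others, and the runs did not overlap, which held for 7.17% of all probes in this direction. The mean was 4.10 ± 2.49 per mille (SD, n = 6), 2.52 ± 0.574 in samples 175 to 178 (SD, n = 4) and 7.25 ± 0.354 in samples 202 and 203 (SD, n = 2). Relative to the floor, Igf2 ranged from 2.86 times in sample 178 to 14.0 times in sample 202.

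Igfbp6, the binding protein with a preference for that ligand, gave 4.3, 3.2, 4.1 and 3.5 per mille in samples 175, 176, 177 and 178, and 7.2 and 9.8 in samples 202 and 203. The same 2 mice were high, without overlap, but here sample 203 was clearly the higher of them. The mean was 5.35 ± 2.61 per mille (SD, n = 6), and the signal was 5.0 to 16.3 times the floor.

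Igf1, the growth signal of loaded fibres, was read by 2 probes. Probe 22H gave 1.3, 1.2, 1.5 and 1.5 per mille in samples 175, 176, 177 and 178, 1.4 in sample 202 and 2.3 in sample 203, a mean of 1.53 ± 0.393 (SD, n = 6). Probe 16I gave 1.0, 1.0, 0.9 and 0.9 per mille in samples 175, 176, 177 and 178, 1.0 in sample 202 and 1.4 in sample 203, a mean of 1.03 ± 0.186 (SD, n = 6). Both probes were highest in sample 203. In per mille, sample 202, in which Igf2 and Igfbp6 were also high, lay within the range of samples 175 to 178 on both Igf1 probes. Below sample 203 the probes ordered the mice differently: samples 177 and 178 were the 2 lowest on probe 16I and the next highest on probe 22H. On probe 16I those 5 mice differ by 1 step of the deposited values, so their order there rests on rounding. As a multiple of the array's floor, sample 202 lay above all of samples 175 to 178 on both probes. The multiple was 2.8 against 2.0 to 2.17 for probe 22H and 2.0 against 1.29 to 1.67 for probe 16I. Rounding of the floors to steps of 0.1 per mille limits this comparison.

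Igf2r, the clearing receptor, gave 1.6, 1.6, 1.9 and 1.8 per mille in samples 175, 176, 177 and 178, 1.3 in sample 202 and 1.7 in sample 203, a mean of 1.65 ± 0.207 (SD, n = 6). Sample 202 was lowest and sample 203 lay inside the range of the other 4. These values followed the floor of the arrays, which was 0.6 per mille in samples 175, 176 and 203, 0.7 in 177 and 178 and 0.5 in 202. As a multiple of the floor, Igf2r was 2.57 to 2.83 in all 6 mice (2.68 ± 0.0928, SD, n = 6). None of the other member probes was as even on that scale. The floors themselves lie on steps of 0.1 per mille, which relative to a floor is coarser than the spread of the Igf2r multiple. With arrays divided by their floor the log2 SD was 0.05 for Igf2r, 0.34 for probe 16I and 0.36 for probe 22H. It was 0.75 for Igfbp6 and 0.99 for Igf2. Outside the members, Igf1r and Igfbp3, both near the floor, had an SD of the multiple of 0.0892 and 0.0712. Their mean multiples were 1.11 and 1.14, so relative to the mean both were less even than Igf2r. Hexokinase 1 (Hk1), with an SD of 0.0522 at a mean of 1.35, was close to Igf2r in that respect.

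**Figure D1:**
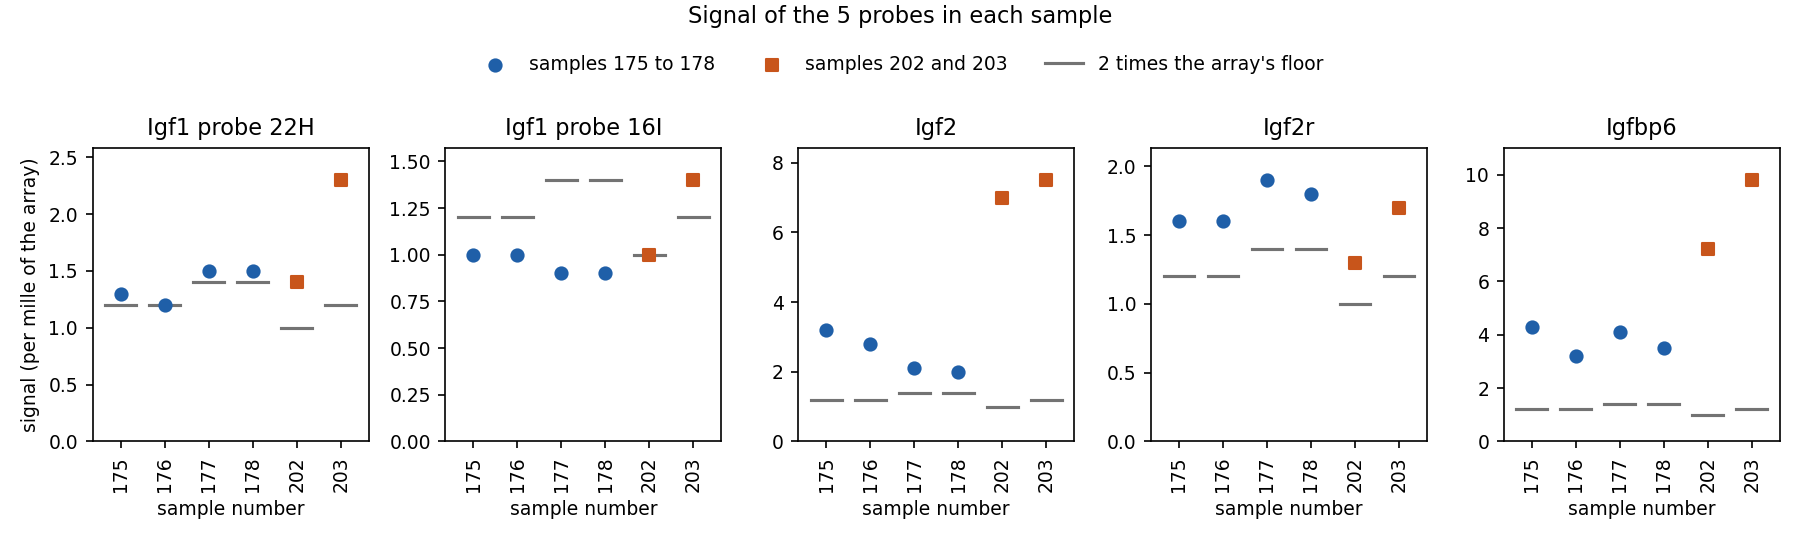
Signal in per mille of the array (vertical axis from 0, its range set for each panel) of the 5 probes in each of the 6 samples; circles are samples 175 to 178, squares samples 202 and 203, and grey lines mark 2 times the floor of each array. Igf2 and Igfbp6 were highest in samples 202 and 203 (7.0 and 7.5, and 7.2 and 9.8 per mille), both Igf1 probes were highest in sample 203, and Igf2r kept to 1.3 to 1.9 per mille.

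The members fell into a widely and a narrowly varying part. Over the 6 mice, log2 signal had an SD of 0.84 for Igf2 and 0.64 for Igfbp6, ranks 4 and 6 from the widest of 223 probes. It was 0.33 for probe 22H and 0.24 for probe 16I of Igf1 and 0.19 for Igf2r, against a median of 0.27 over all probes. Of the 5 probes 2 had an SD above 0.5, as did 5.38% of all probes. Within the number runs the residual SD was 0.28 for Igf2 and 0.23 for Igfbp6, with a median of 0.23 over all probes, so most of the spread of both lay between the runs. In per mille, the spread of the Igf1 probes came largely from 1 mouse: without sample 203 the SD was 0.14 for probe 22H and 0.08 for probe 16I. For Igf2r it fell from 0.19 to 0.08 with arrays divided by their median and to 0.05 with arrays divided by their floor, where the median of all probes was 0.20 in both settings. The SDs of Igf2 and Igfbp6 stayed above 0.45 under every scaling tried and without each mouse.

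**Figure D2:**
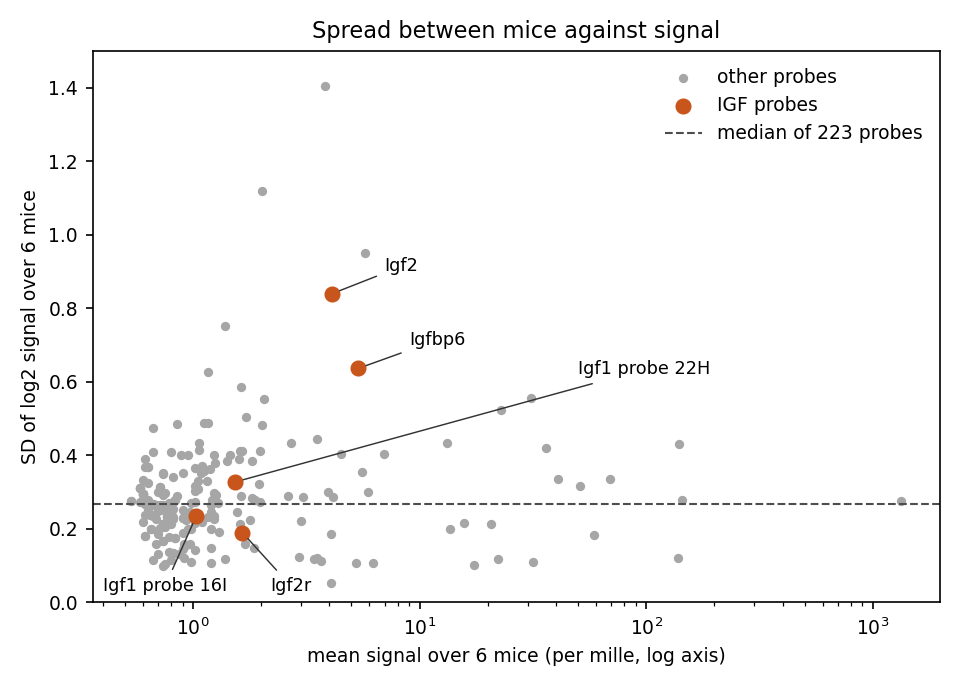
SD over 6 mice of the log2 signal (vertical axis) against mean signal in per mille (log axis) for the 223 probes; filled orange points are the 5 IGF probes and the dashed line is the median SD of 0.27. Igf2 (0.84) and Igfbp6 (0.64) rank 4 and 6 from the widest, and the Igf1 and Igf2r probes (0.19 to 0.33) lie among the other probes.

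The number runs were compared with limma over all 223 probes, to see which members differ between them; the study itself does not make this comparison. Igf2 was 2.93-fold higher in samples 202 and 203 (95% interval 2.14 to 4.01, limma adjusted p = 0.000101) and Igfbp6 2.24-fold higher (1.66 to 3.02, limma adjusted p = 0.00108). The other 3 probes did not pass: the ratio was 1.31 for probe 22H (0.956 to 1.80, limma adjusted p = 0.268), 1.25 for probe 16I (0.937 to 1.66, limma adjusted p = 0.298) and 0.864 for Igf2r (0.651 to 1.15, limma adjusted p = 0.516). Of 5 members 2 were thus called, both higher, where 6.28% of all probes were called, 4.48% higher and 1.79% lower. The median difference of all probes was -0.18 on the log2 scale, so Igf2r, at -0.21, lay near it. With arrays divided by their floor the Igf2r difference changed sign, to 0.03, and probe 22H passed at a log2 difference of 0.63 (limma adjusted p = 0.0428).

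Only 2 samples form the second run, and both are needed for these calls. Without sample 202 the limma adjusted p was 0.104 for Igf2 and 0.0794 for Igfbp6, and without sample 203 it was 0.0551 for both. With any 1 of the 6 mice left out, the log2 difference lay between 1.45 and 1.67 for Igf2 and between 0.94 and 1.39 for Igfbp6. For probe 22H the log2 difference was 0.75 without sample 202 and 0.03 without sample 203, and for probe 16I 0.56 and 0.08. In an exact permutation test of a single probe no p can lie under 0.0667 with these 15 splits, which Igf2 and Igfbp6 reached (exact permutation, two-sided, p = 0.0667 for each).

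Markers of other cell types were set beside these differences. The summed signal of the 5 measured of 6 endothelial markers was 5.1 to 6.4 per mille in samples 175 to 178 and 5.7 and 8.3 in samples 202 and 203, with Pecam1 alone at 2 times the floor or more on each array. The 3 measured of 7 fibroblast markers (Pdgfra, Fn1 and Tnc) summed to 3.9 to 4.5 and to 2.9 and 4.0 per mille, and the 3 satellite cell markers to 2.4 to 3.0 and to 2.0 and 2.9 per mille. The 2 measured of 5 fat cell markers summed to 5.7 to 7.4 and to 4.1 and 7.6 per mille, and Il1b, the 1 measured of 6 macrophage and granulocyte markers, gave 0.6 to 0.7 and 0.5 and 0.6 per mille. No measured marker was at 0. The summed ranges of the runs overlapped or touched in all of these lists. Within the endothelial list Cdh5, the cadherin of endothelial junctions, gave 1.6, 1.4, 1.4 and 1.1 per mille in samples 175, 176, 177 and 178. In samples 202 and 203 it gave 1.9 and 2.5, without overlap, as did 7.17% of all probes in this direction. Its log2 difference was 0.68 (limma adjusted p = 0.0548), and it is named after its values were seen. The log2 difference was 0.37 for Pecam1 and 0.12 for Flt1, but -0.20 for Kdr and -0.24 for Tek. By limma 0 of the 14 genes and 0 of the 8 fibre markers passed between the runs, near the 6.28% of all probes. An unadjusted p under 0.05 was found for 3 of the 14 and 0 of the 8, against 22.9% of all probes. In whole muscle, more cells of a type and more RNA per cell cannot be told apart, and the part of cell composition in the Igf2 and Igfbp6 signals was not tested.

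Ratios of 2 probes on the same array do not change with a factor common to that array, and they were used to see which members varied together. The SD of the log2 difference is small when they do, but also when both probes vary little on their own. Its median over all pairs of the 223 probes was 0.30. No correlation over mice is reported: the runs separate, and neither has 6 samples.

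The ratio of Igf2 to Igfbp6 was 0.744, 0.875, 0.512 and 0.571 in samples 175, 176, 177 and 178 and 0.972 and 0.765 in samples 202 and 203. The runs overlapped (exact permutation, two-sided, p = 0.20). The SD of the log2 difference was 0.35, below the SD of either gene alone but above the median of 0.30 over all pairs of probes. The ligand and its binder were thus high on the same arrays. The SD of a difference also depends on how widely each probe varies alone, and both varied more widely than most probes. Setting it against the median of all pairs therefore does not show how closely they varied together. Only 36.4% of all pairs separated the runs, so overlap of a ratio does not by itself show agreement.

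The ratio of Igf2 to its receptor Igf2r was 2.0, 1.75, 1.11 and 1.11 in samples 175, 176, 177 and 178 and 5.38 and 4.41 in samples 202 and 203. Here the runs did not overlap, and the SD of 0.98 exceeded that of Igf2 alone (exact permutation, two-sided, p = 0.0667, the smallest this design gives). The widest of the 10 pairs was this one, and the ratio of Igfbp6 to Igf2r likewise separated the runs, with an SD of 0.73. Separation was not particular to these pairs. It was seen in 8 of the 10 member pairs and in 36.4% of all 24753 pairs of probes. The ratio of Igf1 probe 22H to Igf2r, for example, was 0.750 to 0.833 in samples 175 to 178 and 1.08 and 1.35 in samples 202 and 203. That of probe 16I to Igf2r, 0.769 and 0.824 in samples 202 and 203, was lower in each of samples 175 to 178.

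The ratio of Igf1 probe 22H to probe 16I was 1.30, 1.20, 1.67 and 1.67 in samples 175, 176, 177 and 178 and 1.40 and 1.64 in samples 202 and 203. Its log2 SD of 0.21 was the smallest of the 10 pairs and below the 0.33 of probe 22H alone, but close to the 0.24 of probe 16I alone. In per mille, both probes of this gene thus shared the high value of sample 203 and little else. Relative to the floor, both were also higher in sample 202 than in samples 175 to 178. Rounding by up to 0.05 per mille is 5.56% of the lowest value of probe 16I.

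**Figure D3:**
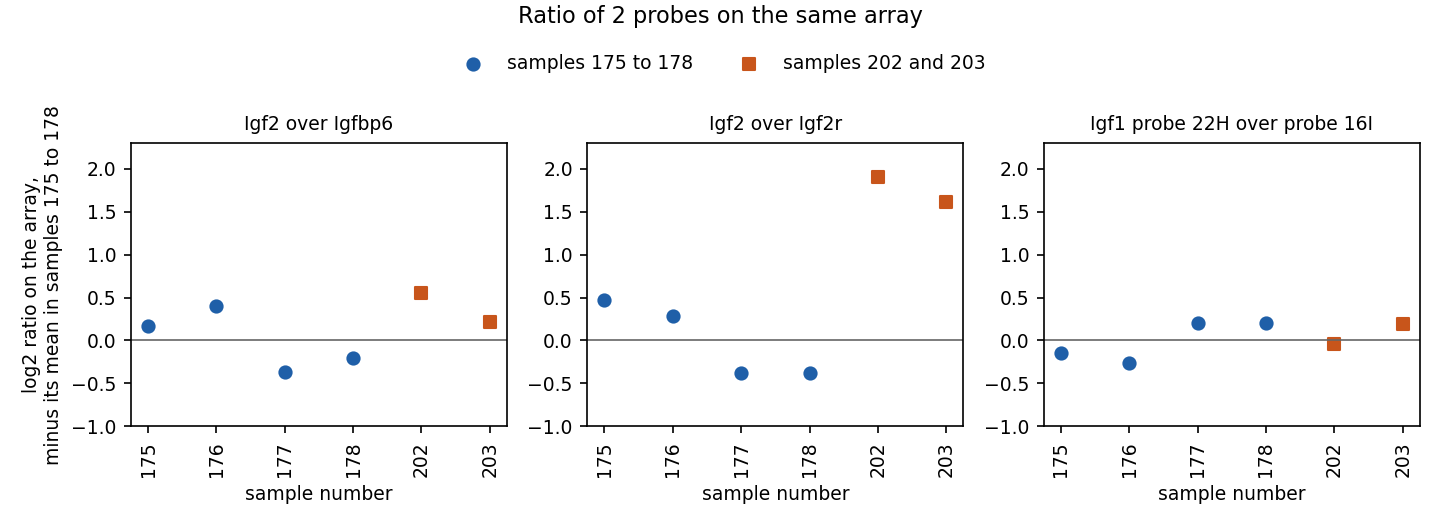
Log2 ratio of 2 probes on the same array, minus its mean in samples 175 to 178 (vertical axis), in each sample; circles are samples 175 to 178 and squares samples 202 and 203. The ratio of Igf2 to Igf2r is higher in samples 202 and 203 (5.38 and 4.41 against 1.11 to 2.0), while the ratios of Igf2 to Igfbp6 and of both Igf1 probes overlap between the runs.

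In the probe names, Igfbp6, Igf1, and Igf2 carry the same number and neighbouring letters (16H, 16I and 16J), and Igfbp5 has 16G. No source used here states whether these names are positions on the array. Probe 16I, named between both high probes, gave 1.0 and 1.4 per mille in samples 202 and 203 and 0.9 to 1.0 in samples 175 to 178. As a multiple of the floor it was 2.0 and 2.33, above the 1.29 to 1.67 of samples 175 to 178. Igfbp5 gave 0.9 and 1.1 per mille in samples 202 and 203, inside or below the 1.0 to 1.8 of samples 175 to 178. An effect of neighbouring spots was not tested.

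The probes most alike to each member, by the SD of the log2 difference over the 6 mice among 152 other named probes, differed between members. Igf2 was nearest to the meiotic cyclin Ccna1 (0.32), angiogenin (Ang, 0.33) and the interleukin 6 receptor subunit Il6st (0.36). Igfbp6 was nearest to the cytokine receptor chain Csf2rb2 (0.15), the angiogenin relative Ang2 (0.26) and follistatin (Fst, 0.29), an inhibitor of activin and myostatin. Of these 6, 5 passed limma as higher in samples 202 and 203. Fst missed the threshold (limma adjusted p = 0.0749), at 1.0 to 1.5 per mille in samples 175 to 178 and 1.7 and 2.1 in 202 and 203. All 6 were picked for likeness to members high in those samples, so this direction follows from the choice. Il6st alone among them reached 2 times the floor on each array, at 6.4, 2.6, 2.8 and 2.7 per mille in samples 175, 176, 177 and 178 and 10.5 and 9.6 in 202 and 203. In sample 175 it was thus well above the other 3 of its run, which Igf2 was not to the same degree.

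Probe 22H of Igf1 was nearest to the laminin chain Lama4 (0.07), the endothelial adhesion molecule Pecam1 (0.08) and the lactate dehydrogenase Ldhc (0.08). Pecam1 gave 1.5, 1.4, 1.8 and 1.8 per mille in samples 175, 176, 177 and 178 and 1.5 and 2.9 in 202 and 203, with the same single high mouse. Probe 16I was nearest to Csf2rb (0.09), the lipoprotein receptor Vldlr (0.14) and Ldhc (0.15), so that Ldhc was the 1 probe named for both Igf1 probes. Igf2r was nearest to urokinase (Plau, 0.05), cyclin D1 (Ccnd1, 0.06) and hexokinase 1 (Hk1, 0.07), none of which reached 2 times the floor in any mouse. The signal of Igf2r itself was clear of the floor. Its nearest probes were picked for likeness, and 54.3% of all probes reached 2 times the floor in no mouse. Whether Igf2r varied more like dim than like clear probes was not tested. With values scaled to an SD of 1 before the distance was taken, 8 of the 15 nearest probes were kept, and without sample 178 it was 9.

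Of a list of 38 other genes of insulin and IGF signalling, 11 were measured. Slc2a4, the insulin-responsive glucose transporter, reached 2 times the floor on all 6 arrays, and 6 of the 11 on none. Igf1r, the receptor that transmits the signal of both ligands, gave 0.6 to 0.8 per mille, and Insr, the insulin receptor, also 0.6 to 0.8. Igfbp3, the main carrier of the ligands in blood, gave 0.6 to 0.8 per mille, and Igfbp5, a binding protein of muscle and bone, 0.9 to 1.8, clear of the floor in 1 mouse. At these signals expression of the receptors was not detectable on this array, which does not show that it was absent. Slc2a4 gave 4.4, 4.2, 4.8 and 3.9 per mille in samples 175, 176, 177 and 178 and 4.7 and 2.8 in 202 and 203, so sample 203, where Igf1 was highest, was lowest for this transporter. By limma 0 of the 11 passed between the runs, against 6.28% of all probes, and 1 had an unadjusted p under 0.05, against 22.9%. Their median log2 difference was -0.20 against -0.18 over all probes. The median log2 SD of the 11 was 0.23 against 0.27 over all probes.

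**Figure D4:**
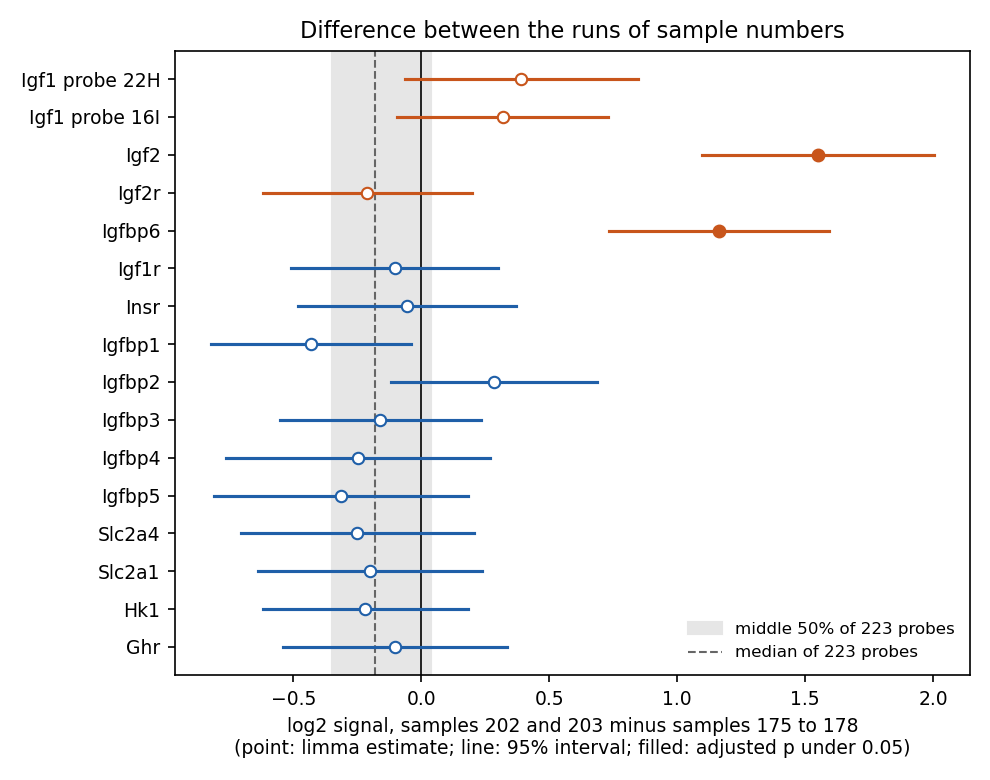
Log2 signal in samples 202 and 203 minus samples 175 to 178 with its 95% interval from limma, for the 5 IGF probes (orange) and the 11 other genes of the pathway list (blue); filled points had an adjusted p under 0.05, the dashed line is the median of all 223 probes (-0.18) and the grey band their middle 50%. Igf2 and Igfbp6 lie to the right of all others shown, at 1.55 and 1.16, and the 11 pathway genes lie between -0.43 and 0.29.

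Among 14 other growth factor ligands measured of 28 listed, 1 was higher in samples 202 and 203 by limma, the vascular ligand Angpt2, and 0 were lower, where 4.48% and 1.79% of all probes were. Of the 14, 4 had an unadjusted p under 0.05, near the 22.9% of all probes, and their median log2 difference was -0.15. Of the 14, Vegfb alone reached 2 times the floor on each array. In the myogenic list 8 of 10 genes were measured, 0 passed limma in either direction, 2 had an unadjusted p under 0.05, both near the shares of all probes (6.28% and 22.9%), and the median log2 difference was -0.14. In that list Myf6, a regulator of mature fibres, and Mef2c, a partner of the myogenic factors, were clear of the floor throughout. Myf6 gave 3.1, 3.5, 4.1 and 3.5 per mille in samples 175, 176, 177 and 178 and 2.0 and 5.0 in 202 and 203, and Myog, a differentiation factor, gave 0.7 to 1.1 per mille over the 6 mice.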

How the data were processed

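RNA of 6 soleus samples was measured on 6 arrays. Per the labels' protocols, 4 microgram of total RNA was reverse transcribed with gene-specific primers and a radioactive nucleotide; the sources used here do not name the scanner, the background treatment or the normalization. The deposited table holds linear spot intensity for 223 probes; without probes 1M and 1O each array sums to 999 to 1000 per mille, so values are read as parts of that total. The platform annotation named 1 gene for 205 probes and none for 18, and 204 were found in the RefSeq gene table. Probe sequences were not used here.

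Signals were analysed as log2 values without a pseudocount. The number runs were compared with limma 3.58.1 in R 4.3.3 (lmFit and eBayes, Benjamini-Hochberg over 223 probes), tested on simulated data. Exact permutation used all 15 splits. For each member the 3 named probes with the smallest SD of the log2 difference were named, leaving out the dimmest 25%; pathway genes were named by a list. The precision is limited by having 6 arrays, without spot replicates. The limma p-values set the difference between the number runs against the spread of samples within them. The runs are not a known batch or condition. Members, lists and tests were chosen with earlier results of these data known. Alternatives were other scalings, a pseudocount of 0.6 per mille, subtraction of 50% of the floor, filters, other floors and leaving out each sample; the fit on probes clear of the floor was added after the data were seen.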

Additional observations from a re-analysis of the deposited data

Results flagged for a closer look

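In 26 sets of 6 values (the 5 members, 11 pathway genes and 10 pair differences) the gap between the highest or lowest sample and its neighbour was divided by the range and set against Dixon's critical value for 6 samples. Both Igf1 probes exceeded it in sample 203, the highest sample, with 0.762 for probe 16I and 0.657 for probe 22H. Chance alone flags about 1 in 20 sets, here 1.30, and the sets share the same arrays. Both probes name the same gene, so they are not separate events of different genes.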

How the results depend on the processing

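Igf2 and Igfbp6 were higher in samples 202 and 203 and passed limma's adjusted p of 0.05 under the 8 alternatives that kept all samples. For Igf2 the limma adjusted p rose from 0.000101 to 0.0124 with arrays divided by their median. It was 0.0321 with arrays divided by their floor and 0.0491 with quantile normalization, close to the limit. For Igfbp6 it was 0.0138 with quantile normalization. The log2 differences were 1.23 to 1.79 for Igf2 and 0.91 to 1.41 for Igfbp6. Leaving out 1 sample gave 1.45 to 1.67 and 0.94 to 1.39, and both calls were lost without sample 202 or 203; the lone sample left is then assumed to vary like the others. The number of member probes called was then 0 to 2. Division of arrays by their floor let probe 22H of Igf1 pass, at 0.63; no other setting run did. Over all probes 14 were called, 22 with arrays divided by their floor, 2 of 57 with only probes clear of the floor, and 0 to 20 without 1 sample; without sample 202 limma called 0, and 40 had an unadjusted p under 0.05. The number of members clear of the floor was 4, and 1 at 3 times the floor. The median log2 SD of the members was 0.33, 0.15 by the median absolute deviation, and 0.21 to 0.37 without 1 sample. Of 15 probes named as most alike, 8 were kept with scaled values and 9 to 12 without 1 sample. All 40 alternative mean signals moved by less than 1 SD. Causes of these changes were not tested, except that leaving out samples or probes lowers their number. No paired analysis was possible because the labels give 1 group. The step of 0.1 per mille and the floor limit probe 16I and the dim pathway genes.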

Other observations

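Igfbp4 and Igfbp5, binding proteins of the same family as Igfbp6, varied alike over the mice. They were singled out after their values were seen. Their probe names, 16F and 16G, also carry neighbouring letters, and an effect of neighbouring spots was not tested. Igfbp4 gave 1.1, 1.0, 1.9 and 1.3 per mille in samples 175, 176, 177 and 178 and 0.9 and 1.3 in samples 202 and 203. Igfbp5 gave 1.0, 1.0, 1.8 and 1.3, and 0.9 and 1.1. Both were highest in sample 177 and lowest in sample 202, as were 36.8% of all probes with ties counted, Igf2r among them. Their ratio stayed between 1.0 and 1.18, with an SD of the log2 difference of 0.10. Igfbp4 was clear of the floor in 2 mice and Igfbp5 in 1. Igfbp2 and Igfbp1 were clear in no mouse, at 0.6 to 0.9 per mille each.

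Igfbp1 gave 0.6 and 0.7 per mille in samples 202 and 203 and 0.8 to 0.9 in the others, without overlap (limma adjusted p = 0.174), as did 13.9% of all probes in that direction. The growth hormone receptor Ghr gave 1.0 to 1.5 per mille and was clear of the floor in 2 mice.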
